A study of Mus musculus with 12 samples.

Results

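CD8.1 T cells of CD8Dual mice were compared with conventional CD8+ T cells of C57BL/6 (B6) mice by RNA sequencing. Both are mature lymph node T cells that carry CD8 co-receptors and antigen receptors selected on MHC class I, but they differ in functional lineage and in strain. The 3 CD8.1 samples and the 3 B6 CD8 samples were taken by their labels, making 6 of the 12 samples of the series; the 3 B6 CD4 samples and the 3 CD8.2 samples served as reference points. In CD8Dual mice (called 8in4 in the sample names) CD8 is made from 2 places: a knock-in at Cd4 makes CD8α.1 with CD8β, so that no CD4 protein is produced, and the native Cd8 genes make CD8α.2. CD8.1 T cells are those that display the co-receptor from the altered Cd4 locus, and CD8.2 T cells those that display the co-receptor from the Cd8 locus of the same mice; B6 CD8 and B6 CD4 T cells come from unaltered C57BL/6 mice. All 4 groups were untreated male mice aged 6 to 10 weeks, and RNA came from pooled cells sorted from lymph nodes for TCRβ and for CD62L, a homing receptor of naive T cells; the study's methods add a gate on low CD44. No antigen or drug was given. Every cell of the CD8Dual mouse carries the altered Cd4 allele, so within these 6 samples lineage fate, strain and the knock-in itself cannot be told apart. Transcripts of the knock-in and of the native Cd8 loci carry nearly the same CD8 sequence, so the counts of Cd8a and Cd8b1 can hold both.

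During positive selection in the thymus, T cells commit to a helper or a cytotoxic program. The zinc finger factor ThPOK, encoded by Zbtb7b, directs helper differentiation and represses cytotoxic genes, whereas Runx3 directs cytotoxic differentiation and represses Cd4 and Zbtb7b. CD40 ligand, encoded by Cd40lg, is the molecule through which helper T cells stimulate B cells and dendritic cells, and Foxp3 is the factor that defines regulatory T (Treg) cells, which arise mainly among CD4+ cells. Cytotoxic T cells use perforin and granzymes to kill and are marked by the T-box factors T-bet (Tbx21) and Eomes.

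Promoter windows of 5 of these genes are shown because their transcripts set the compared populations apart in opposite directions: Zbtb7b and Foxp3, which were high in CD8.1 T cells, and the cytotoxic genes Nkg7, Prf1 and Gzmm, which were high in B6 CD8 T cells. Each window holds 250 bases before and 50 bases after the RefSeq transcription start, 5′ to 3′ on the strand of the gene, in build GRCm38.p6. Capitals mark the RUNX core motif TGTGGT or its reverse complement ACCACA. The windows are chr3:89393329-89393628 (minus strand) for Zbtb7b, chrX:7579426-7579725 (plus strand) for Foxp3, chr7:43436888-43437187 (plus strand) for Nkg7, chr10:61297586-61297885 (plus strand) for Prf1 and chr10:79688770-79689069 (plus strand) for Gzmm.
Zbtb7b: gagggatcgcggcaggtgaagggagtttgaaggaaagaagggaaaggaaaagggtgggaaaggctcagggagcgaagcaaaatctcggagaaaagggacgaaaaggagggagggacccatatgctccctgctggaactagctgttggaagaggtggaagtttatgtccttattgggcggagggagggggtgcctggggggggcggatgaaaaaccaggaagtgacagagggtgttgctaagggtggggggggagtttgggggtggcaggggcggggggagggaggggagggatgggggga
Foxp3: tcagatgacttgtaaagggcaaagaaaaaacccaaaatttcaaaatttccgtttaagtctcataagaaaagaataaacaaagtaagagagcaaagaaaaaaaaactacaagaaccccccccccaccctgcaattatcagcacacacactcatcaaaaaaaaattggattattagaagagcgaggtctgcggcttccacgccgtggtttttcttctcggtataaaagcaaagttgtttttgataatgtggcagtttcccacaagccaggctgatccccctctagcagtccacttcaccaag
Nkg7: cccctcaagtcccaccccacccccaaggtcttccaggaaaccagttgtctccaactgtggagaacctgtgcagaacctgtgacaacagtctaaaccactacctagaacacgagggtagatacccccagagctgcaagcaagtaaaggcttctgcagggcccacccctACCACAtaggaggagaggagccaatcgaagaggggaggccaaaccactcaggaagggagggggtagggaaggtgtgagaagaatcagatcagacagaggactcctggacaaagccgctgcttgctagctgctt
Prf1: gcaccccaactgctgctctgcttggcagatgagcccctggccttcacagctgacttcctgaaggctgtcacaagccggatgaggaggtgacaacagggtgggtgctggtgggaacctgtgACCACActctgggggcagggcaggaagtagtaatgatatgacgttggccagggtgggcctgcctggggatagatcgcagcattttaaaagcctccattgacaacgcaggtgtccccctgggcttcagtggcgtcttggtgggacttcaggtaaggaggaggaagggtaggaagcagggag
Gzmm: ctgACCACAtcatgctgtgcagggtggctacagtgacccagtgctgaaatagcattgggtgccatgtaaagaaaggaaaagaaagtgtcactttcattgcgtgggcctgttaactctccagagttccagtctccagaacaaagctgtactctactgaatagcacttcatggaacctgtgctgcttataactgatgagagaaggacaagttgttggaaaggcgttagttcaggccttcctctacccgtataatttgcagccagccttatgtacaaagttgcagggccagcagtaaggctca

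The motif occurred 1 time in each of the Nkg7, Prf1 and Gzmm windows, as ACCACA, and not in the Zbtb7b and Foxp3 windows. Searched on both strands, it was present in 12.7% of the 8865 promoter windows of tested genes that the table held, and in 16.8% of all 32851 windows of 300 bases. The table held a window for 69.1% of the genes that were over 5-fold higher in CD8.1 and for 68.2% of those over 5-fold lower, fewer than 80%, so no comparison of motif shares between these sets was made. The genes shown were chosen by hand and 1 start of each was searched, so their matches do not stand for either set. A match is a description of letters and not evidence of binding.

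The deposited values were counts per gene, with totals of 20386247 to 27637080 in the B6 CD8 samples and 20195646 to 23041779 in the CD8.1 samples. Levels below are CPM, the counts per 1000000 after TMM scaling of the totals, and differences are log2 fold changes from edgeR's quasi-likelihood fit to all 12 samples, given ± the standard error with n = 3 per group. Correlations of log2 levels were 0.989 to 0.994 among CD8.1 samples, 0.994 to 0.997 among B6 CD8 samples and 0.961 to 0.966 between the groups. Ribosomal and other structural RNAs summed to 3428 to 10160 CPM in B6 CD8 and 1986 to 3056 CPM in CD8.1, and the third CD8.2 sample reached 36930 CPM. Longer transcripts were lower in CD8.1 more often: 9.13% of genes with at most 1692 exon bases and 32.7% of those with at least 7048 were called lower, with median log2 differences of 0.08 and -0.12.

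Markers of other cell types differed between the groups and are given here because they can touch the results. B cell genes were higher in CD8.1 in 13 of 16 and lower in 0, and their sum was 1199 to 1621 CPM in CD8.1 and 838 to 898 CPM in B6 CD8. Of 10 myeloid genes tested, 5 were higher and 1 lower, and the list summed to 22.1 to 24.3 CPM in CD8.1 and 9.33 to 13 CPM in B6 CD8; with genes of at least 1 CPM on average, 2 were higher. Natural killer (NK) cell genes were lower in 2 of 5, Il18rap and Klrb1c, with sums of 9.07 to 15.9 CPM in CD8.1 and 49.9 to 96.8 CPM in B6 CD8. Il18rap, an IL-18 receptor chain described below, made up most of the B6 CD8 sum. The difference between the sums is thus mainly that of this gene. Ncr1, which defines NK cells, stayed at or under 0.191 CPM in these 6 samples. Genes of NKT cells were higher in 4 of 7 and lower in 3, and their defining factor Zbtb16 had no count in B6 CD8 and 0.191, 1.02 and 0.57 CPM in CD8.1. Genes of γδ T cells were higher in 2 of 3 and lower in 1, with Trdc at 7.16, 8.22 and 8.23 CPM in B6 CD8 and 12, 12.8 and 12.2 CPM in CD8.1. The T cell marker Cd3e was present in every sample of both groups, at 349.6, 350.4 and 328 CPM and 269, 358 and 355 CPM. The part of these other cells in the results below was not tested.

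In all, 532 of 13118 tested genes differed over 5-fold with P under 0.05, the rule of the study, and are called differentially expressed genes (DEGs) below. Of these, 340 were higher in CD8.1 (2.59% of the genes tested) and 192 were lower (1.46%). At an adjusted P under 0.05 and any size, 2574 genes were higher (19.6%) and 2557 lower (19.5%), 5131 in all, and these are the genes that the text calls higher or lower. The samples of the compared groups did not overlap in 526 of the 532 DEGs, and in 45.6% of all tested genes. Close to the 5-fold limit, Igkv12-44 at 5.01-fold was counted and Tmem154 at 4.99-fold was not on the higher side, and on the lower side Drc1 at 5.01-fold was counted and Gm14009 at 4.89-fold was not. Between the reference groups of B6 mice, 11.4% of genes were higher and 11.7% lower in CD4 than in CD8 T cells. CD8.1 differed from B6 CD4 with 6.94% higher and 5.82% lower. These comparisons share samples with that of CD8.1 and B6 CD8, so their values are given side by side and not related to each other.

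The co-receptor genes differed in both directions. Cd4, whose locus makes the CD8.1 co-receptor in these mice, stood at 51.5, 50.5 and 47.1 CPM in the CD8.1 samples and at 0.287, 0.109 and 0.337 CPM in the B6 CD8 samples. Gene counts do not show which part of the altered Cd4 allele these CD8.1 reads come from, so the Cd4 values measure reads at that locus and may not stand for an intact Cd4 transcript. Its level in B6 CD4 T cells was 969 ± 53 CPM (SD, n = 3), far above both. The log2 difference between CD8.1 and B6 CD8 was 7.70 ± 0.18 (adjusted P = 1.33e-13). Cd8a measured 1390, 1479 and 1400 CPM in B6 CD8 and 179, 196 and 201 CPM in CD8.1, a log2 difference of -2.89 ± 0.10. Cd8b1 measured 2233, 2339 and 2133 CPM and 157, 216 and 206 CPM, a log2 difference of -3.53 ± 0.11. Counts of Cd8a and Cd8b1 in CD8.1 T cells were therefore below those in B6 CD8 and above those in B6 CD4 T cells. In B6 CD4, Cd8a was at 1.17 ± 0.428 CPM and Cd8b1 at 33.2 ± 2.87 CPM. Gene counts do not show how much of a knock-in transcript is counted under Cd8a and Cd8b1. These values may thus not measure the amount of CD8 transcript.

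Helper genes were higher in CD8.1 T cells. Of 21 tested, 16 were higher and 2 lower than in B6 CD8, and 9 were DEGs. The median log2 difference was 1.34 against 0.00 over all genes. Against B6 CD4, 11 of the 21 were higher and 2 lower, with a median of 0.46. Over all genes 6.94% were higher and 5.82% lower in that comparison. Zbtb7b (ENSMUSG00000028042, chromosome 3, 89377644 to 89394776) stood at 1.19, 0.691 and 0.914 CPM in B6 CD8 and at 117, 173 and 172 CPM in CD8.1. The difference was 7.37 ± 0.20 (adjusted P = 7.54e-13), and all 3 CD8.1 samples lay far above all 3 B6 CD8 samples. B6 CD4 T cells held 159, 154 and 164 CPM, and the log2 difference of CD8.1 from them was -0.04 ± 0.13, with a 95% interval of -0.31 to 0.22. Cd40lg measured 0.983, 0.982 and 0.673 CPM in B6 CD8 and 84.8, 88.2 and 94 CPM in CD8.1, a difference of 6.63 ± 0.12 (adjusted P = 1.71e-14). It was slightly lower in CD8.1 than in B6 CD4 (-0.32 ± 0.08, adjusted P = 0.0176). The costimulatory receptor OX40 (Tnfrsf4) went from 0.655, 0.40 and 0.77 CPM to 58.9, 86.8 and 75.8 CPM, and the transcription factor Maf from 0.287, 0.218 and 0.577 CPM to 15.7, 12.9 and 12.6 CPM; neither gene's groups overlapped.

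Other helper genes that were higher, with their log2 differences, were Tox2 (5.33), Ccr4 (4.57), Izumo1r (3.11), Cd28 (1.87) and Icos (1.34); Izumo1r encodes a folate receptor family member of Treg and anergic cells, and Cd28 and Icos are costimulatory receptors. The factors Bcl6 (0.87), Gata3 (0.76), Myb (0.74) and Tox (0.73) were also higher, by less than 2-fold each, and Slamf6 by 0.38. Cytokine receptors of helper cells were among the largest: Il1rl1, the IL-33 receptor, had no count in any B6 CD8 sample and measured 13.6, 13.1 and 8.79 CPM in CD8.1, at least 94.3-fold higher taking 3 counts per B6 CD8 library as the floor. The IL-25 receptor gene Il17rb, likewise without a count in B6 CD8, measured 3.25, 1.81 and 1.38 CPM, at least 17.1-fold higher. Il6ra and Tnfsf8 were lower (-0.38 and -0.41), but without B6 CD8 replicate 1, B6 CD8 replicate 2 or CD8.1 replicate 2 neither was called, at -0.35 to -0.36 and -0.30 to -0.39, and 0 helper genes were lower. Il21r, Il6st and Cxcr5 were not called, at 0.08, -0.10 and 0.07.

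**Figure D1:**
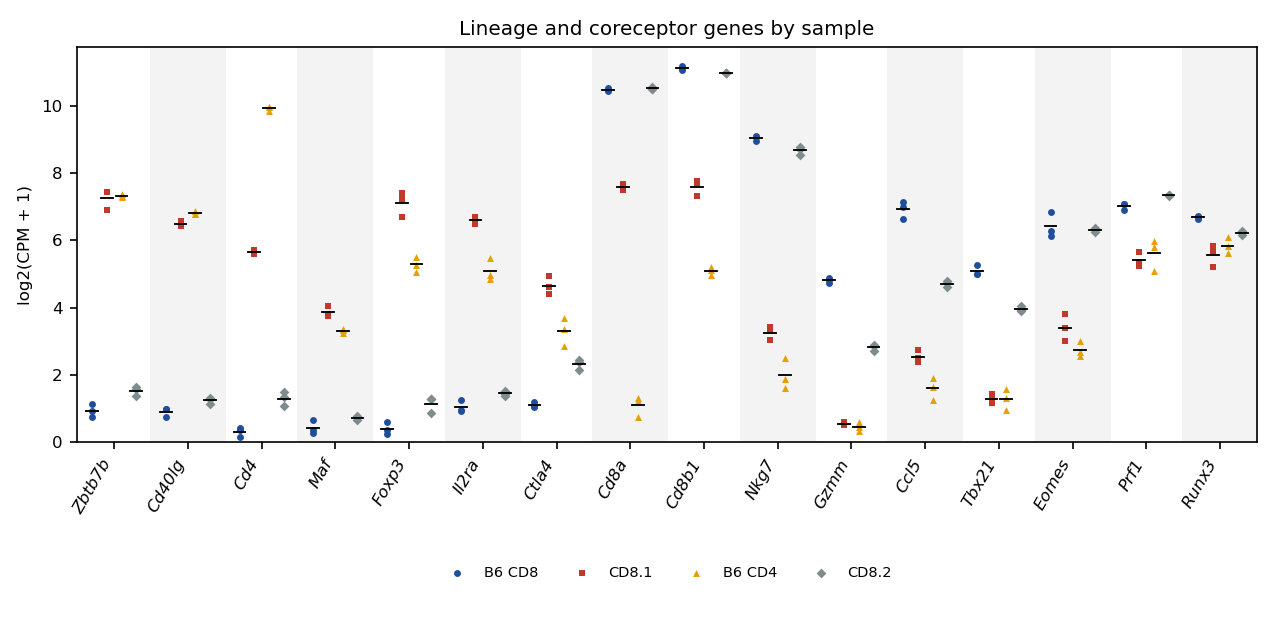
Level of 16 lineage genes in each sample, as log2(CPM + 1) on the vertical axis, for the 4 groups of 3 samples; points are samples and short bars the group means. Zbtb7b and Cd40lg sat near B6 CD4 in the CD8.1 samples, Foxp3, Il2ra and Ctla4 lay above B6 CD4, and Nkg7, Gzmm and Tbx21 lay far below B6 CD8.

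Cytotoxic genes were lower in CD8.1 T cells: 17 of 23 tested were lower and 4 higher, 13 of them as DEGs, with a median log2 difference of -2.83. Nkg7, a granule membrane protein needed for killing, measured 494, 532 and 549.7 CPM in B6 CD8 and 8.83, 9.64 and 7.22 CPM in CD8.1, a difference of -5.94 ± 0.18 (adjusted P = 3.73e-12). Granzyme M (Gzmm) went from 25.5, 27.4 and 28.4 CPM to 0.43, 0.531 and 0.427 CPM (-5.85 ± 0.18). Neither gene's CD8.1 samples came near any B6 CD8 sample. The chemokine genes Ccl5 and Xcl1 were lower, with log2 differences of -4.65 and -4.43. So were the receptor genes Klrd1 and Klrc1, which encode CD94 and NKG2A, with -4.56 and -5.33. Ctsw, a cathepsin of cytotoxic cells, gave -2.61, Crtam, an adhesion receptor, -2.83, and the cystatin gene Cst7 -1.99.

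The factors of the program were lower to different degrees. Tbx21 fell from 30.9, 30.6 and 37.4 CPM in B6 CD8 to 1.24, 1.42 and 1.71 CPM in CD8.1 (-4.50 ± 0.19), and Eomes from 76.7, 69.4 and 113 CPM to 7.02, 13.1 and 9.59 CPM (-3.12 ± 0.21). Runx3 measured 105, 102 and 97.5 CPM in B6 CD8 and 35.9, 50.6 and 56 CPM in CD8.1, a difference of -1.10 ± 0.14 (adjusted P = 1.97e-05). These counts are per gene and do not separate the Runx3 promoters. Perforin (Prf1) measured 134, 133 and 119.7 CPM and 40.3, 36.9 and 49.6 CPM (-1.61 ± 0.17), and B6 CD4 T cells held 61.9, 54.7 and 33 CPM. Against B6 CD4, the CD8.1 levels of Tbx21, Prf1 and Runx3 gave log2 differences of -0.04, -0.24 and -0.26, none called, with 95% intervals of -0.55 to 0.47, -0.60 to 0.12 and -0.56 to 0.04. Relative to B6 CD4, CD8.1 samples had more Nkg7, Ccl5, Cst7 and Eomes, by 1.45, 1.20, 1.41 and 0.79. Of the 23 cytotoxic genes, 8 were higher and 1 lower than in B6 CD4, with a median of 0.29. Over all genes 6.94% were higher and 5.82% lower in that comparison.

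The effector molecules granzyme B (Gzmb) and Fas ligand (Fasl) were instead higher in CD8.1 than in B6 CD8. Gzmb stood at 0.983, 1.67 and 2.26 CPM in B6 CD8 and 6.97, 5.13 and 5.08 CPM in CD8.1 (1.81 ± 0.31, adjusted P = 3.54e-04), and at 0.455, 1.25 and 1.02 CPM in B6 CD4. Fasl rose from 2.09, 1.71 and 1.59 CPM to 6.3, 4.6 and 7.5 CPM (1.77 ± 0.24, adjusted P = 3.81e-05), and B6 CD4 held 7.64, 7.59 and 7.44 CPM. Lamp1 and Srgn, a lysosomal membrane protein and a granule proteoglycan found in many blood cells, were higher by 0.29 and 0.24; Srgn was not called without B6 CD8 replicate 1, 2 or 3 or CD8.1 replicate 1 or 2, at 0.15 to 0.24. Gzma and Gzmk, at under 6 CPM in every sample, were not called. Leaving out 1 replicate at a time kept the number of lower cytotoxic genes at 16 to 17.

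The Klra (Ly49) family, receptors for MHC class I on NK and some memory CD8+ T cells, was lower in 7 of 8 tested members. Klra6 measured 7.16, 7.45 and 9.09 CPM in B6 CD8 and had no count in CD8.1, at least 56.7-fold lower. Klra13-ps and Klra8, also without a count in CD8.1, were at least 35.5-fold and 10.7-fold lower. Klra1 was not called (-1.12 ± 0.46), but was lower without CD8.1 replicate 2 (-1.57) or B6 CD4 replicate 1 (-1.14). The family summed to 21.2 to 31.7 CPM in B6 CD8, 0.955 to 1.42 CPM in CD8.1 and 8.34 to 9.36 CPM in CD8.2 T cells. Klra genes are near-identical copies, so reads could be split among them. Of the NK cell genes, Il18rap and Klrb1c were also lower in CD8.1. Klrb1c stood at 1.35, 1.85 and 2.5 CPM in B6 CD8 and 0.334, 1.02 and 0.285 CPM in CD8.1. The part of NK cells in the Klra values was not tested. With genes of at least 1 CPM on average, 4 of the family remained tested and lower.

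Treg genes were higher in CD8.1 T cells than in both B6 populations. Of 26 tested, 22 were higher than in B6 CD8 and 1 lower, with 16 DEGs on the higher side and a median log2 difference of 2.67. Against B6 CD4, 21 were higher and 0 lower, with a median of 1.29. Foxp3 (ENSMUSG00000039521, chromosome X, 7573644 to 7595245 in mm10) stood at 0.287, 0.182 and 0.529 CPM in B6 CD8, 102, 149 and 168 CPM in CD8.1 and 32.6, 37.8 and 44.6 CPM in B6 CD4. CD8.1 exceeded B6 CD8 by 8.76 ± 0.29 (adjusted P = 7.77e-12) and B6 CD4 by 1.87 ± 0.17 (adjusted P = 1.18e-05), with no overlap among the 3 groups. In bulk RNA, more cells of a type and more RNA per cell cannot be told apart, so these values do not say whether Treg cells were more frequent. Il2ra (CD25), the high-affinity chain of the IL-2 receptor, measured 0.942, 1.38 and 0.914 CPM in B6 CD8, 102, 95.3 and 89.2 CPM in CD8.1 and 27.6, 30.1 and 43.2 CPM in B6 CD4. The inhibitory receptor Ctla4 measured 1.1, 1.31 and 1.06, 29.6, 23.7 and 20.1 and 6.28, 9.27 and 11.9 CPM in the same order, and both genes were highest in every CD8.1 sample.

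Lrrc32 (GARP, which holds latent TGFβ at the Treg surface) differed from B6 CD8 by 8.41 and from B6 CD4 by 2.07. Nrp1 and Ikzf2 (Helios), often used as marks of thymus-derived Treg cells, differed from B6 CD8 by 4.91 and 2.63 and from B6 CD4 by 1.95 and 1.81. Ikzf2 was at 37.2, 22.7 and 21.6 CPM in CD8.1 against 2.91, 3.31 and 7.17 CPM in B6 CD8. Genes of activated or tissue Treg cells were among the higher genes, with Klrg1 (7.35), Ebi3 (5.86), Socs2 (5.02), Ccr8 (4.40) and Prdm1 (2.86), and Penk had 1 count in the B6 CD8 samples together and 389 in CD8.1. Entpd1 (CD39), an enzyme that degrades extracellular ATP, measured 2.01, 2.18 and 3.46 CPM in B6 CD8, 6.49, 8.54 and 9.4 CPM in CD8.1 and 1.5, 2.24 and 1.53 CPM in B6 CD4, above both B6 groups in CD8.1. Itgae (CD103), an integrin of CD8+ and of some Treg cells, was lower than in B6 CD8 (-3.08 ± 0.14, adjusted P = 1.51e-10) and higher than in B6 CD4 (2.65). Tnfrsf1b, Nt5e and Il10ra were not called, none of them further than 0.11 from B6 CD8 on the log2 scale.

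Genes induced by antigen receptor signalling were higher in CD8.1: 12 of 19 were higher and 1 lower, with a median log2 difference of 0.88. Nr4a1, an immediate early gene whose level follows receptor signal strength, stood at 11.2, 12.7 and 15.2 CPM in B6 CD8 and 53.2, 72.6 and 63.2 CPM in CD8.1 (2.28 ± 0.21, adjusted P = 8.27e-07). Cd5, a surface inhibitor set by self-reactivity, measured 237, 235 and 252 and 380.3, 464 and 487 CPM (0.88 ± 0.09, adjusted P = 1.89e-06), and the factor Irf4 7.53, 7.71 and 10.7 and 39, 30.6 and 36.5 CPM. None of these 3 genes overlapped between the groups. The feedback genes Cish (2.53), Spry1 (2.54) and Dusp5 (1.36) and the factors Egr1 (0.93), Egr2 (0.98), Egr3 (0.83) and Nr4a3 (1.01) were higher as well. Ptpn22, a phosphatase that dampens receptor signalling, was lower (-0.73), and Cd69, Dusp2, Dusp6, Nfatc1, Nr4a2 and Tagap were not called. Against B6 CD4, 3 of the 19 were higher and 0 lower; the log2 difference of Nr4a1 was 0.13 with a 95% interval of -0.29 to 0.54, and that of Cd5 was -0.16 with an interval of -0.35 to 0.02.

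The receptor complex and its kinases changed less: of 18 genes, 4 were higher and 8 lower, and the median was -0.09. Higher were Cd247 (0.74), Lcp2 (0.38), Trac (0.48) and Trbc2 (0.32), the ζ chain, the adaptor SLP-76 and receptor constant regions, and the widest lower differences were those of the phosphatase CD45 and of an adaptor, Ptprc (-0.73) and Grap2 (-0.70). Cd3e and Cd3g were not called and lay at -0.07 (95% interval -0.27 to 0.14) and -0.01 (95% interval -0.18 to 0.15), and Lck, the kinase that co-receptors carry, at -0.12 (95% interval -0.29 to 0.05).

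Checkpoint and costimulatory receptor genes were higher in 15 of 19 and lower in 2, with a median log2 difference of 1.48. The list shares Ctla4, Tigit, Tnfrsf4, Tnfrsf9 and Tnfrsf18 with the Treg list and Cd5, Cd6 and Tnfrsf9 with the signalling list. It also shares Cd28, Icos and Tnfrsf4 with the helper list, Cd27 with the naive and memory list and Cd160 with the NKT list. PD-1 (Pdcd1) measured 1.92, 1.82 and 2.17 CPM in B6 CD8 and 14.8, 19.1 and 14.5 CPM in CD8.1 (3.04 ± 0.20, adjusted P = 1.77e-08). Others outside those lists were Cd200 (2.31), Lag3 (2.02), Tnfrsf25 (1.92) and Btla (0.69). Cd160, a receptor of cytotoxic lymphocytes, and Lair1 were lower (-3.04 and -0.51).

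Genes of naive and memory states did not move as a block, with 6 of 20 higher and 5 lower. Ccr7 and S1pr1, which guide entry into and exit from lymph nodes, were higher by 0.50 and 0.54, and Cd44, a memory marker, by 0.50. Tcf7, Lef1, Il7r, Satb1, Klf2 and Bach2, which mark naive T cells, were not called, with log2 differences between -0.13 and 0.29; without CD8.1 replicate 1, Tcf7 (0.29), Lef1 (0.42) and Klf2 (0.28) were higher and Il7r (-0.29) lower. Cxcr3 and Il2rb, the receptors for inflammatory chemokines and for IL-15, were lower, at -3.00 and -0.97. Ly6c2 fell from 650.4, 714 and 930.1 to 16.3, 19.3 and 14.2 CPM, and its neighbour Ly6c1 rose from 1.47, 1.38 and 1.88 to 83.4, 88.6 and 71.7 CPM; the genes are near-identical, so reads may be shared between them.

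Chemokine and related migration receptors were higher in 8 of 17 tested and lower in 4; 5 and 4 were DEGs. Against B6 CD4, 12 were higher and 0 lower, with a median of 1.38. The receptors of helper and Treg cells Ccr4 and Ccr6 rose from 0.983, 1.31 and 1.64 and from 1.02, 0.618 and 0.481 CPM in B6 CD8 to 28.2, 38.2 and 26.4 and to 12.4, 9.64 and 11.3 CPM in CD8.1. Ccr8 and Ccr10 were higher by 4.40 and 3.16, and Ccr3, without a count in B6 CD8, was at least 21.9-fold higher. Gpr183, an oxysterol receptor that positions lymphocytes, was higher by 1.41. Cxcr6 measured 260.1, 279 and 289.8 CPM in B6 CD8, 16.5, 10.5 and 10.3 CPM in CD8.1 and 2.64, 2.98 and 3.02 CPM in B6 CD4, so CD8.1 lay between the B6 groups, with log2 differences of -4.47 from B6 CD8 and 2.11 from B6 CD4. Ccr9, a gut-homing receptor, and Cxcr3, a receptor of type 1 responses, lay between the B6 groups in the same way, at -2.53 and -3.00 against B6 CD8 and 1.94 and 1.38 against B6 CD4. Ccr2, Cxcr4, Cxcr5 and Gpr15 stayed near the B6 CD8 level and are described with the shared genes.

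Cytokine receptor genes divided, with 12 of 33 higher and 11 lower. The IL-18 receptor chains fell, Il18rap from 43.4, 47 and 81.1 to 5.97, 4.91 and 3.66 CPM and Il18r1 with a log2 difference of -1.01, as did the IL-12 receptor chains, Il12rb1 (-0.65) and Il12rb2 (-1.92); Il12rb1 was not called without B6 CD8 replicate 2 (-0.59), B6 CD8 replicate 3 (-0.60) or CD8.1 replicate 3 (-0.49). The chains of the interferon-γ receptor went opposite ways, Ifngr1 at -0.57 and Ifngr2 at 1.05. Higher were the decoy receptor gene Il1r2, which had no count in B6 CD8 and was at least 40.9-fold higher, Il9r at 7.07, 7.03 and 3.89 CPM in CD8.1 against 0.164, 0 and 0.0481 CPM, and Tgfbr3 (1.05), Tgfbr1 (0.70) and Il4ra (0.43). Il7r and Il2rg, the chains of the IL-7 receptor, were not called (-0.13, 95% interval -0.38 to 0.11, and 0.23, 95% interval 0.01 to 0.46); without CD8.1 replicate 1 both were, at -0.29 and 0.37.

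Among integrin and adhesion genes, 7 of 19 were higher and 7 lower. Itgb3, the β3 integrin chain, rose from 20.3, 19.4 and 23.8 to 142, 159 and 145 CPM (2.81 ± 0.10), and Itga6 by 1.15. Cd226 and Icam1, both used in contacts of cytotoxic cells, were lower, at -1.40 and -1.03. In the Bcl2 family of survival genes, 3 of 13 were higher and 4 lower; Bcl2 fell from 163, 168 and 169.6 to 97.7, 66.4 and 74.1 CPM (-1.07 ± 0.11, adjusted P = 1.99e-06), and Mcl1 was higher by 0.39.

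Interferon-stimulated genes were lower in CD8.1: 15 of 26 were lower and 2 higher, with a median log2 difference of -0.60. Against B6 CD4, 9 were lower and 0 higher. The sum of the list overlapped, at 2002 to 2501 CPM in B6 CD8 and 1946 to 2246 CPM in CD8.1. Ifit3 stood at 42.2, 46.5 and 76.9 CPM in B6 CD8 and 18.4, 22.5 and 15.2 CPM in CD8.1 (-1.56 ± 0.23, adjusted P = 9.05e-05), and Oas3 at 74.1, 72.6 and 111 and 26.5, 38.9 and 27.6 CPM. The third B6 CD8 sample was the highest of all 6 for both genes, and the CD8.1 samples lay below every B6 CD8 sample. Mx1 was the DEG of the list, at 3.81, 2.51 and 4.28 CPM in B6 CD8 and 0.143, 0.31 and 0.095 CPM in CD8.1. Leaving out any 1 of the 12 samples gave 13 to 17 lower genes. Slfn1 and Slfn2, which restrain T cell cycling, were the members that were higher, by 0.52 and 0.67.

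Cell cycle genes were higher in 9 of 20 and lower in 1, but single libraries decided this count. Stmn1, a microtubule regulator, measured 11.7, 10.7 and 34 CPM in B6 CD8 and 52.6, 75.4 and 55.2 CPM in CD8.1, and Mki67 4.54, 5.16 and 22.7 and 6.11, 9.91 and 11.2 CPM. In both genes the third B6 CD8 sample was well above the other two of its group, and Mki67 was not called (-0.23), but was higher by 0.88 without that sample. The number of higher cell cycle genes was 2 without B6 CD8 replicate 1, B6 CD8 replicate 2 or CD8.1 replicate 2, 4 without CD8.1 replicate 1, and 13 without B6 CD8 replicate 3. The number lower was 2 without B6 CD8 replicate 1 or 2 and 0 without B6 CD8 replicate 3 or CD8.1 replicate 3. Genes of sterol and fatty acid synthesis were higher in 12 of 20 and lower in 2. The sterol synthesis enzymes Sqle (2.13), Cyp51 (1.28) and Fdft1 (0.88) were higher, whereas Fasn and Acaca, the enzymes that build fatty acids, were lower, Fasn at -0.47 and Acaca from 50.4, 52.2 and 53.9 to 22.9, 27.8 and 27.8 CPM. Transcripts of the mitochondrial genome summed to 24110 to 32790 CPM in B6 CD8 and 47520 to 56440 CPM in CD8.1. Of 19 tested, 12 were higher and none lower. The study's methods state that a high RNA integrity number was required of the samples used. RNA quality was not analysed here, and its part in these values was not tested. Among 86 genes of cytosolic ribosomal proteins, 8 were higher and 7 lower, and among 9 Gimap genes, GTPases of lymphocyte survival, 5 were higher and 1 lower.

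**Figure D2:**
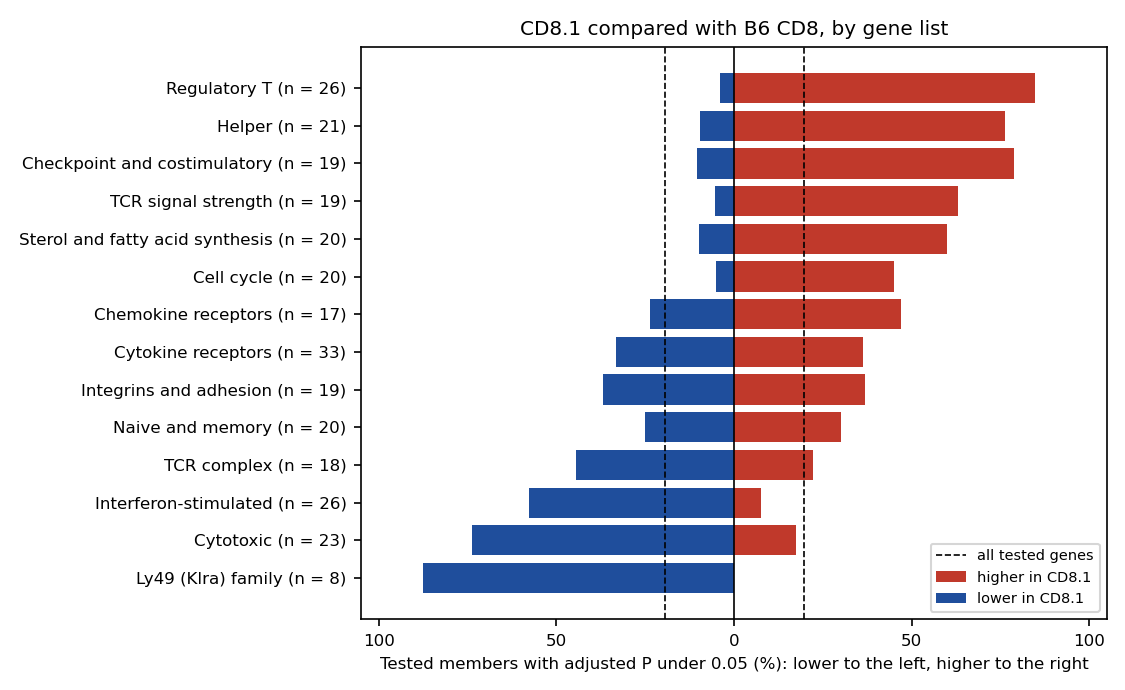
Percent of the tested members of each gene list shown that were higher or lower in CD8.1 than in B6 CD8 at an adjusted P under 0.05; bars show the 2 directions and dashed lines the 19.6% and 19.5% over all tested genes. The Treg and helper lists lay above the higher line and the cytotoxic and interferon-stimulated lists above the lower line.

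The 10 DEGs with the largest rise, among genes of at least 10 CPM on average in a group and without overlap, were Il1rl1, Foxp3, Lrrc32, Cd4, Zbtb7b, Tnfrsf4, Cd40lg, Il2ra, St8sia6 and Gm4956; for Cd4 the limit given above applies. St8sia6, a sialyltransferase, measured 2.01, 2.11 and 2.17 CPM in B6 CD8, 159.7, 126 and 147 CPM in CD8.1 and 165, 156 and 161 CPM in B6 CD4, so its CD8.1 samples lay at or just under the CD4 level. Gm4956, a transcript without an assigned function, measured 0.368, 0.436 and 0.577 CPM in B6 CD8 and 29.5, 28.6 and 18.9 CPM in CD8.1. The 10 with the largest fall were Gm44174, Gm43698, Bend4, Adgrg5, Nkg7, Gzmm, Cd163l1, Plac8, Slc6a19 and Ly6c2. Gm44174, a long non-coding RNA on chromosome 6 (71353035 to 71373284 in mm10) near Cd8a, measured 33.8, 38.4 and 31.7 CPM in B6 CD8 and had 3 counts in the CD8.1 samples together, a ratio of 753 with a 95% counting interval of 257 to 3650. It had no count in B6 CD4. Adgrg5, an adhesion G protein-coupled receptor, fell from 101, 103 and 91 to 1.15, 1.73 and 0.997 CPM, and Slc6a19, an amino acid transporter, from 37.9, 40.5 and 17.9 to 0.859, 0.619 and 0.475 CPM. Plac8, found in memory and innate-like lymphocytes, fell from 207, 240.0 and 360.4 to 7.88, 5.4 and 3.04 CPM, and Cd163l1, a scavenger receptor of γδ T cells, from 9.66, 8.8 and 12.5 to 0, 0.486 and 0.095 CPM. Cd163l1 was low in CD8.2 T cells too, at 0.426, 0.333 and 0.467 CPM.

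The B6 CD4 and CD8.2 samples belong to neither group compared above, although all 12 samples set the filter, the scaling and the shared spread. They form another helper against cytotoxic pair in which the altered mouse supplies the cytotoxic side. In that pair 13.6% of genes were higher in CD4 and 13.3% lower. Of the 340 DEGs higher in CD8.1, 216 (63.5%) were also higher in B6 CD4 than in CD8.2, 10 were lower and 114 were not called. Of the 192 DEGs lower in CD8.1, 150 (78.1%) were also lower in B6 CD4, 2 were higher and 40 were not called. Signs were the same in 299 of 340 and 177 of 192, and the median log2 differences were 2.10 and -2.72, against 3.41 and -3.54 in CD8.1 versus B6 CD8. Across the 532 DEGs the log2 differences of the pairs correlated with Pearson's r of 0.813, and across all 13118 genes r was 0.655 and Spearman's rho 0.335; genes are not independent replicates, and the DEGs were chosen for their size in 1 of the pairs. Zbtb7b, Cd40lg and Foxp3 differed by 6.41, 6.33 and 4.94 between B6 CD4 and CD8.2, Nkg7 by -7.02 and Gzmm by -3.99.

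In the 12 DEGs that went the opposite way, each population of the CD8Dual mouse differed in the same direction from the B6 population it was set against. Those with the largest difference were Gm16867, Gm4841, Igha, Map2 and Pla2g2d on the higher side and Evc and Drc1 on the lower side. Map2, a microtubule-associated protein, measured 0.0819, 0.0364 and 0.241 CPM in B6 CD8 and 0.50, 0.474 and 0.255 CPM in B6 CD4 but 1.77, 1.95 and 3.04 CPM in CD8.1 and 1.36, 1.11 and 1.14 CPM in CD8.2. Drc1, a ciliary protein, measured 9.33, 7.82 and 10.3 and 4.32, 4.09 and 3.19 CPM in the B6 groups and 1.1, 2.12 and 2.23 and 1.66, 1.95 and 1.78 CPM in CD8.1 and CD8.2. Igha encodes the heavy chain of IgA, and the other 5 of the 12, named here although outside the rule, were Jchain, Lyz1, Lyz2, Casp1 and Wnt10a, of which Jchain is a plasma cell gene and Lyz1 and Lyz2 are myeloid genes (Lyz1 was not called in CD8.1 against B6 CD8, at 2.38, without B6 CD8 replicate 2); the sums of the B cell and myeloid lists are given above. Igha did not exceed 3 CPM in any sample.

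**Figure D3:**
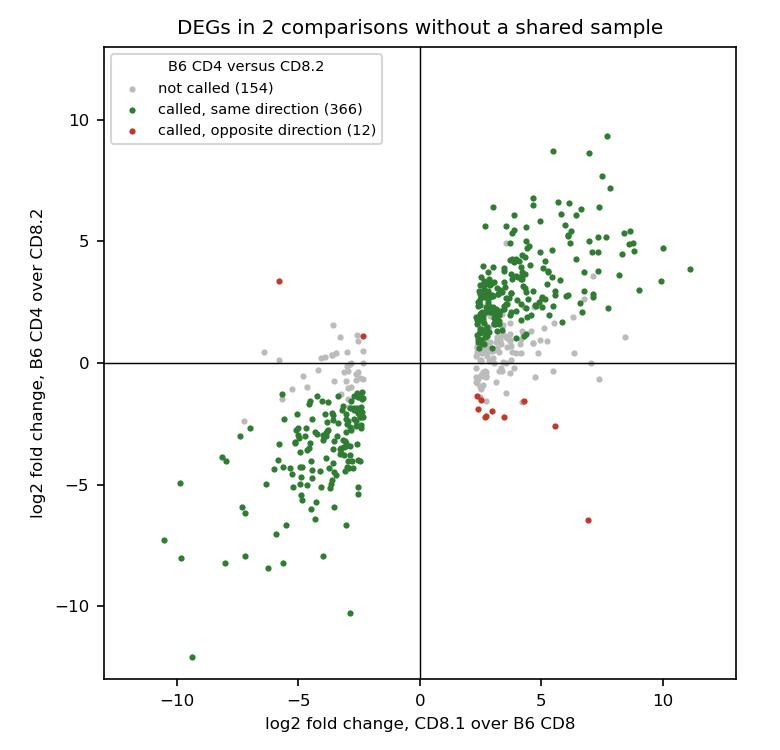
Log2 fold change of CD8.1 minus B6 CD8 (horizontal axis) against that of B6 CD4 minus CD8.2 (vertical axis) for the 532 DEGs, each point a gene, coloured by whether the second comparison called it in the same direction (366), the opposite direction (12) or not at all (154). Most points lie in the quadrants of equal sign.

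CD8.1 T cells also stood apart from both B6 populations: 263 genes differed over 2-fold from B6 CD8 and from B6 CD4 in the same direction at an adjusted P under 0.05, 211 of them higher and 52 lower. These genes were chosen by both comparisons, so their values are a description. Among those of at least 10 CPM with the largest differences, Il1rl1, Lrrc32, Nrp1, Ccr4, Foxp3 and Ccr6 have been described, and their B6 CD4 levels were also above B6 CD8. S100a6, a calcium-binding protein of activated and memory cells, measured 9.13, 10.6 and 9.09 CPM in B6 CD8 and 5.91, 8.75 and 11.1 CPM in B6 CD4, which overlap, whereas CD8.1 held 48.6, 49.4 and 34.8 CPM and CD8.2 5.79, 6.11 and 4.52 CPM. Gm14036 varied within CD8.1, at 2.96, 15.5 and 18.8 CPM. On the lower side, Lars2, Mir6236, Gm15564, Gm23935, Gm24187, Gm24270 and Gm25911 led, and they varied widely between samples of a group. Lars2, for example, stood at 4688, 1460 and 2446 CPM in B6 CD8, 370.3, 121 and 214 CPM in CD8.1, 4711, 3764 and 3352 CPM in B6 CD4 and 897, 1667 and 6735 CPM in CD8.2. In B6 CD8, B6 CD4 and CD8.2, the sample with the most structural RNA was also the highest for Lars2. In CD8.1, Lars2 was highest in replicate 1, whereas the structural RNA Gm42418 was highest in replicate 3, at 0.195% of counts against 0.142%. The part of structural RNA in these values was not tested. Ktn1, which encodes the kinesin-binding protein kinectin, stood at 14, 15.5 and 12.1 CPM in B6 CD8 and 5.49, 4.6 and 4.84 CPM in CD8.1, and the CD8.2 samples held 5.49, 4.89 and 4.32 CPM. The count depended on single libraries: it was 151 without B6 CD4 replicate 1, 173 without B6 CD4 replicate 2 and 364 without CD8.1 replicate 1, and the lower genes numbered 29, 34 and 121 in these fits. The higher genes numbered 122 without B6 CD4 replicate 1, 139 without B6 CD4 replicate 2 and 140 without CD8.1 replicate 2.

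The genes in which CD8.1 and B6 CD8 stayed alike although B6 CD4 differed were few. A gene was counted when the 95% interval of its log2 difference between CD8.1 and B6 CD8 lay within -1 and 1 and B6 CD4 differed over 2-fold from both at an adjusted P under 0.05. Between B6 CD4 and B6 CD8, 1104 genes differed over 2-fold, 515 with CD4 lower and 589 with CD4 higher. Of these, 18 met this rule, 13 with CD4 lower and 5 with CD4 higher. By a looser reading, 23 of the 431 genes over 5-fold different between B6 CD4 and B6 CD8 lay nearer to B6 CD8 in CD8.1 T cells. Of the 23, 21 were lower in CD4, and how the 431 divided by direction is not given here. The rule used both comparisons, so the values below carry no test. Cxcr5, the receptor that brings lymphocytes to B cell follicles, had the narrowest interval. It measured 28, 27.2 and 30.4 CPM in B6 CD8, 27.7, 32 and 30.1 CPM in CD8.1 and 11.5, 12.6 and 11.6 CPM in B6 CD4, and the log2 difference between CD8.1 and B6 CD8 was 0.07 with a 95% interval of -0.12 to 0.26. CD8.2 T cells held more, 45.4, 52.6 and 47.4 CPM.

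Other receptors of cell migration were in the group. Cxcr4, the CXCL12 receptor, measured 61.6, 55.4 and 75.8 CPM in B6 CD8, 89.8, 82.6 and 49.1 CPM in CD8.1 and 26.6, 25.5 and 37.3 CPM in B6 CD4. Ccr2, a receptor for inflammatory chemokines, measured 11.1, 10.6 and 17.4, 23.8, 13.8 and 10.6 and 1.91, 4.14 and 3.19 CPM, and Gpr15, a gut-homing receptor, 5.04, 6.0 and 4.52, 6.35, 3.8 and 5.89 and 0.819, 0.517 and 0.765 CPM in the same order. Their CD8.2 samples were unlike B6 CD8, at 2.68, 3.11 and 2.51 CPM for Ccr2 and 0.766, 0.722 and 0.933 CPM for Gpr15, so for these genes the other CD8+ population of the same mouse lay below both CD8.1 and B6 CD8. Steap3, a ferrireductase of iron uptake, was similar, at 4.26, 4.51 and 6.59 CPM in B6 CD8, 4.2, 5.88 and 3.75 CPM in CD8.1, 1.41, 1.9 and 1.02 CPM in B6 CD4 and 0.851, 1.28 and 0.612 CPM in CD8.2. Atp2b4, a calcium pump of the plasma membrane, had 10.2, 9.42 and 10.2, 12.3, 11.8 and 11.1 and 3.09, 3.54 and 4.38 CPM, Slc9a7, a sodium-proton exchanger, 7.25, 7.96 and 9.53, 10.3, 6.33 and 7.79 and 3.64, 2.37 and 3.06 CPM, and the G protein α subunit Gna15 10.1, 10.2 and 7.7, 7.35, 8.76 and 5.94 and 1.23, 1.72 and 2.98 CPM in B6 CD8, CD8.1 and B6 CD4. In Atp2b4, Slc9a7 and Gna15 the CD8.2 means of 10.9, 10.4 and 6.1 CPM were above B6 CD4 as well.

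Among the 5 genes that were higher in B6 CD4, the transcriptional regulator Nacc2 measured 8.47, 8.65 and 9.09 CPM in B6 CD8, 9.31, 11.3 and 9.12 CPM in CD8.1, 24.9, 23.4 and 24.7 CPM in B6 CD4 and 3.28, 3.33 and 3.27 CPM in CD8.2. App, the amyloid precursor protein, measured 12.3, 15.8 and 7.99 CPM in B6 CD8, 11.4, 9.77 and 15.3 CPM in CD8.1 and 29.2, 31.1 and 15.8 CPM in B6 CD4; B6 CD4 replicate 3 was close to the highest samples of the other groups. Adamts14 and Fbln1, genes of matrix proteins, were at under 8 CPM in every sample, with 2.13, 1.34 and 3.7 CPM of Fbln1 in B6 CD8, 2.15, 3.63 and 2.85 CPM in CD8.1 and 5.73, 4.91 and 7.06 CPM in B6 CD4. Myo3b, a myosin, and the transcripts Gm5124 and Gm7665 were lower in B6 CD4 and at under 4 CPM in every sample, and the V segments Trbv12-1, Trav16n and Trav14-2 completed the set. Just inside the rule lay Myo3b, whose interval reached -0.96, and just outside lay Trav9d-1, Dock4 and Hopx, whose intervals reached -1.01, 1.07 and -1.08. Cd8a and Cd8b1, the genes that define the shared co-receptor, did not meet it, with log2 differences of -2.89 and -3.53 from B6 CD8. Asking for an interval within 1.5-fold left 8 genes, and asking for a difference of B6 CD4 over 5-fold left 1.

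**Figure D4:**
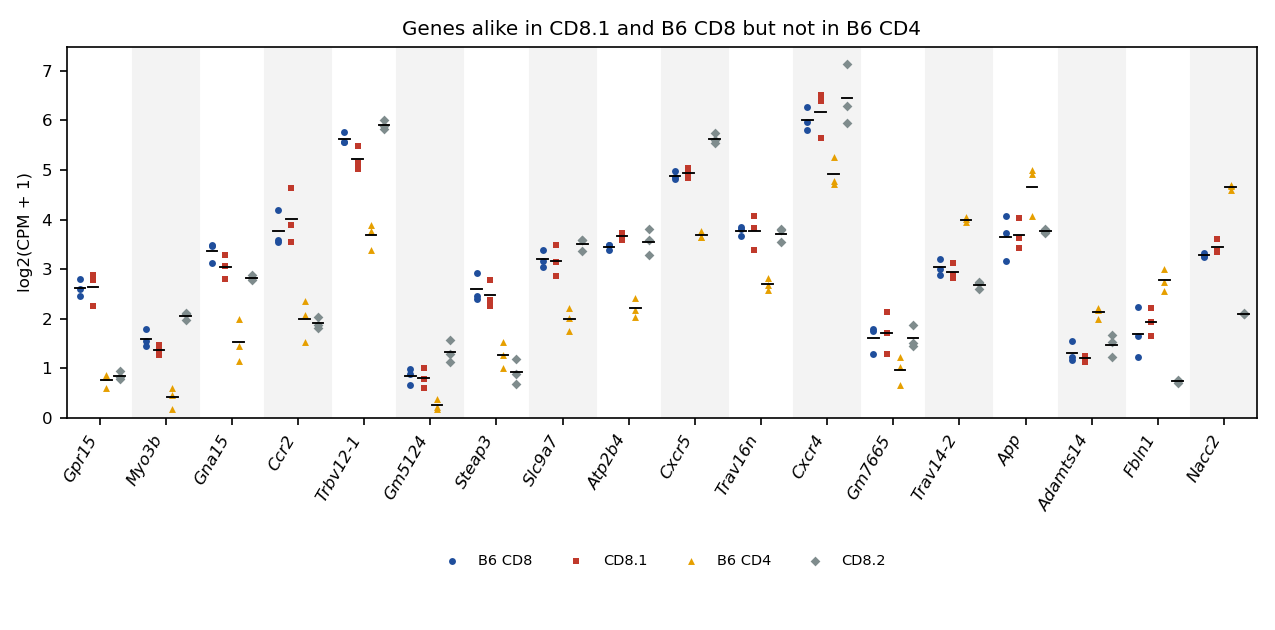
Level of the 18 genes alike in CD8.1 and B6 CD8 but not in B6 CD4, as log2(CPM + 1) on the vertical axis, for each sample of the 4 groups; short bars are group means. B6 CD8 and CD8.1 samples overlap or adjoin for each gene and the B6 CD4 mean lies apart, below in 13 genes and above in 5, while CD8.2 follows B6 CD8 for some genes and not for others.

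V segments of the antigen receptor were compared because both populations were selected on MHC class I and B6 CD4 T cells on MHC class II. Of 22 Trbv segments tested, 12 were higher and 5 lower in CD8.1 than in B6 CD8, and of 66 Trav segments, 11 were higher and 3 lower. Over all tested genes 19.6% were higher and 19.5% lower, so neither Trav count exceeded the general share. None was a DEG. The Trav counts rested on single libraries, with 4 higher without B6 CD8 replicate 1, 6 without CD8.1 replicate 2, 7 without CD8.1 replicate 1 or replicate 3, and 1 lower without B6 CD8 replicate 3 or CD8.2 replicate 2 and 5 lower without CD8.1 replicate 2. Lower Trbv segments numbered 3 without B6 CD8 replicate 2, CD8.1 replicate 2 or CD8.1 replicate 3. As shares of all Trbv counts, Trbv12-1 made up 6.26, 6.58 and 5.62% in B6 CD8, 4.58, 3.42 and 3.46% in CD8.1 and 1.17, 1.33 and 1.42% in B6 CD4, nearer to B6 CD8 although the CD8.1 samples lay below it. Trbv31 made up 2.21, 2.09 and 1.91% in B6 CD8, 6.25, 6.79 and 7.16% in CD8.1 and 8.02, 8.19 and 7.91% in B6 CD4, and its level was 1.97 ± 0.09 (adjusted P = 2.49e-10) above that of B6 CD8 in CD8.1. Trbv2 and Trbv3 were higher (1.47 and 0.77) and Trbv29, Trbv17 and Trbv14 lower (-0.90, -0.70 and -0.53); Trbv12-1 was lower by CPM too (-0.42), but not without B6 CD8 replicate 2 (-0.37), CD8.1 replicate 2 (-0.38) or CD8.1 replicate 3 (-0.33). Of the 17 Trbv segments of at least 1% on average in a group, the CD8.1 mean lay between those of B6 CD8 and B6 CD4 in 12, nearer to B6 CD4 in 8 and to B6 CD8 in 4, and outside both in 5. Of 44 Trav segments, it lay between in 26, nearer to B6 CD4 in 10 and to B6 CD8 in 16, and outside in 18. Trav16n, one of the 18 alike genes, made up 5.42, 5.76 and 5.53% of Trav counts in B6 CD8, 4.08, 5.14 and 6.73% in CD8.1, 1.61, 1.86 and 1.8% in B6 CD4 and 5.78, 6.41 and 6.23% in CD8.2. Trav14-2 went the other way, with 2.97, 3.01 and 3.52% in B6 CD8, 3.3, 2.39 and 2.74% in CD8.1 and 4.69, 4.73 and 5.02% in B6 CD4. Many Trav segments of the mouse are near-identical duplicates, so single segments are uncertain.

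**Figure D5:**
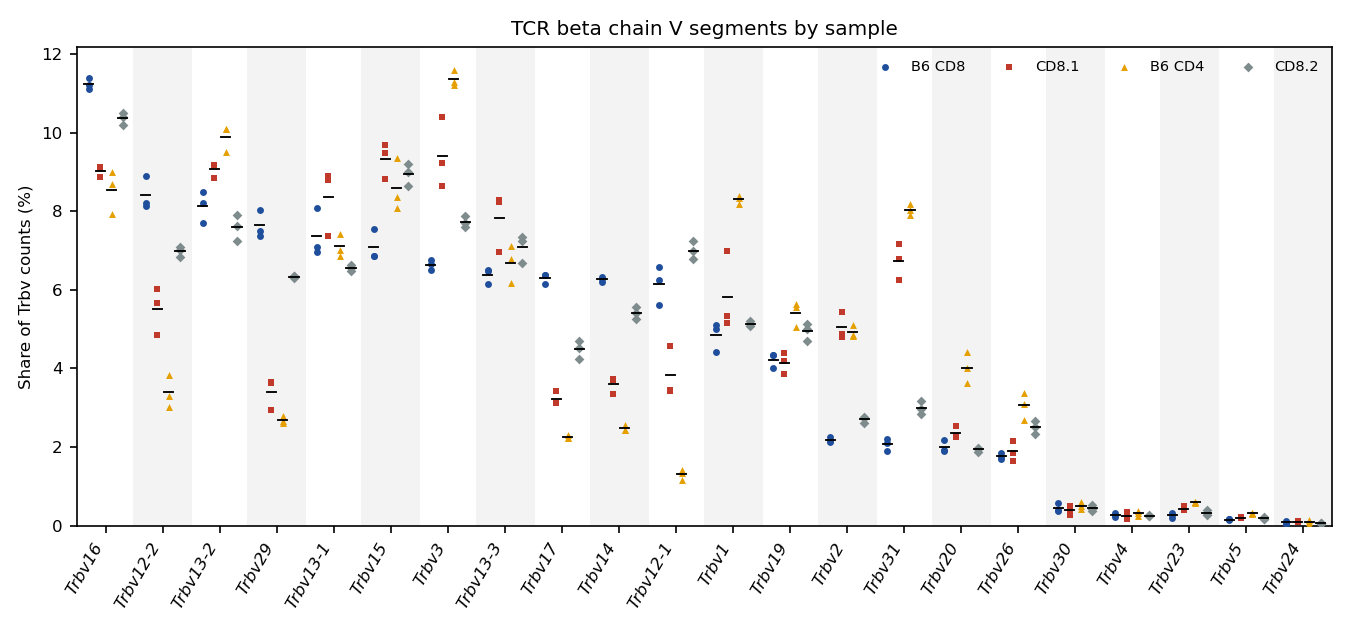
Share of all Trbv counts, in percent on the vertical axis, taken by each of 22 Trbv segments in every sample of the 4 groups; points are samples. Trbv12-1 is low in B6 CD4 and higher in the CD8+ groups, and Trbv31 in CD8.1 lies close to B6 CD4.

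Of 205 named genes checked for it, 71 overlap an annotated gene on the other strand, among them Zbtb7b, Foxp3 and Runx3, and the counting was not stated to use strand, so reads of such pairs cannot be told apart.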

How the data were processed

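Total RNA from pooled sorted T cells was made into libraries with the SMARTer Universal Low Input RNA Kit and sequenced in pairs on a HiSeq 2500, and, per the labels and the study's methods, the authors aligned reads to mm10 with STAR and quantified them with RSEM; limma is also named, and versions are not given in the sources used here. The deposited values were whole-number counts for 49585 genes in 12 samples (RSEM estimates need not be whole, and a rounding step is not given in the sources used here), 3 in each of 4 groups, and all were mapped to samples by their names. Totals of 18667474 to 37110502 counts per sample set the precision, and floors and counting intervals cover counting error only. The labels do not say that samples of a group came from separate animals, so P values measure the spread between these samples, which may be technical.

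Counts were scaled by TMM and filtered with filterByExpr to 13118 genes, and edgeR 4.0.16 (R 4.3.3) fitted a quasi-likelihood model to all 12 samples with a mean for each group, with Benjamini-Hochberg adjustment over all tested genes. CPM uses the TMM-scaled totals. Genes were matched by identifier to GENCODE M21 (49326 of 49585), and promoters came from RefSeq on GRCm38.p6. Genes named are members of the gene lists, the 10 DEGs with the largest difference in each direction, up to 8 alike and 8 apart genes in each direction (all of at least 10 CPM in the highest group), and up to 5 opposite DEGs in each direction. The alike genes under 10 CPM, 5 of the opposite DEGs and the genes next to a limit fall outside this rule and were named after their values were seen, to account for every member. Some members of these lists are not reported here by name. The groups, gene lists and limits were chosen with earlier results of these data known. Alternatives were DESeq2 1.42.0, other filters, other limits, other sets of samples, a replicate block, removal of V, D and J segments and of single samples, and a length correction, of which the last, the removal of samples from groups not compared and the likeness rule with no interval were added after the data were seen. In counts simulated for CD8.1 versus B6 CD8 over 13118 genes, 200 of 200 genes changed 8-fold were called, with 3 unchanged genes. Of 200 genes changed 8-fold in B6 CD4 only, 195 were found alike. The changed genes were drawn from those with higher counts. In the data, 1 of the 18 alike genes remained when B6 CD4 had to differ over 5-fold. Recovery of smaller differences and of genes with lower counts was therefore not tested. Figures were drawn with matplotlib 3.10.9.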

Additional observations from a re-analysis of the deposited data

How the results depend on the processing

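The count of DEGs moved with the test and with the limits on expression and size. Of 532 DEGs, 526 were among the 1114 (757 higher and 357 lower) found with no filter on low counts, and a mean of at least 1 CPM left 284 (155 higher). With these filters 27 and 5 DEGs went the opposite way in B6 CD4 versus CD8.2, 81 genes of CD8.1 lay below both B6 groups with no filter, and with at least 1 CPM 236 DEGs went the same way and 174 genes stood apart, 139 of them higher. A fold over 2 with unadjusted P under 0.05 gave 1655 genes, and an unpaired two-sample test of each gene alone on log2(CPM + 1) gave 146. A fold over 5 left 41 genes apart (27 higher and 14 lower). Alike genes numbered 8 with an interval within 1.5-fold, 1 with B6 CD4 over 5-fold away and 43 by the estimate with no interval. DESeq2's Wald test gave 535 DEGs (530 shared), its size factors in edgeR 532 (531 shared), a fit to the 6 samples alone 463 (462 shared) and a length correction 532 (519 shared); after that correction 12.4% of genes with at most 1692 exon bases and 23.8% of those with at least 7048 were lower.

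Leaving out 1 sample lowers the smallest group to 2, so more genes pass the filter. DEGs then numbered 564 to 616, of which 490 to 527 were shared with the 532, with 347 to 427 higher and 189 to 223 lower. Genes at an adjusted P under 0.05 numbered 4106 to 5757 (1972 to 2764 higher and 2134 to 2993 lower), and 2491 to 4324 in B6 CD4 versus CD8.2 (1271 to 2118 higher and 1220 to 2206 lower). DEGs that went the same way there numbered 321 to 384 and the opposite way 9 to 17, alike genes 15 to 21 (12 to 16 shared with the 18), and genes apart 151 to 364, with 122 to 243 higher and 29 to 121 lower. Of 212 named genes, 20 changed sign under at least 1 of these settings, 0 of which passed the test as reported. Among 4210 values, 4158 kept their call, 35 lost it, 16 gained it and 1 was called with the opposite sign: Mki67 lay at -0.23 with all samples and, leaving out 1 sample, between -0.62 (without B6 CD8 replicate 1) and 0.88 (without B6 CD8 replicate 3). Lef1 became higher with DESeq2, its size factors, either other filter or the length correction (0.28 to 0.41), Bach2 and Satb1 with the length correction (0.29 and 0.28), and Gzma lower with no filter (-0.80).

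Deviations from the group means gave r of -0.0782, -0.0483 and -0.282 for same-numbered CD8.1 and B6 CD8 samples. Pairs with unlike numbers gave r of -0.146 to 0.242. With 3 samples per group these deviations depend on each other, so they cannot decide whether the numbers pair samples. A replicate block gave 533 DEGs (526 shared; 342 higher and 191 lower), 4956 genes at an adjusted P under 0.05, 17 alike genes and 224 apart.

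With 3 samples per group and a floor of 0.125 CPM in B6 CD8, differences among genes at a few counts were not detectable, and a gene outside the alike rule is not shown to differ. Markers of other cells were present at low levels, and 1 CD8.2 sample with much structural RNA enters the shared spread.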
